A study of Arabidopsis thaliana with 28 samples.

Results

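The class I KNOX homeobox genes STM, KNAT1 (also called BP), KNAT2 and KNAT6 and the homeobox gene WUS were followed through the transcript, histone mark and chromosome contact data of tetraploid and diploid Arabidopsis. These 5 genes were chosen by their locus names, AT1G62360, AT4G08150, AT1G70510, AT1G23380 and AT2G17950, out of 33278 nuclear genes in the deposited expression table. The rule used no measured value, but earlier results of these data were known when the genes were chosen. The plants were autotetraploid 4 × Col-0, a line made by colchicine treatment of Col-0, and its diploid progenitor Col-0, the accession taken as wild type. Seedlings of both genotypes grew for 10 days on MS medium in long days, and their aerial parts were taken for all 3 assays. RNA-seq had 3 replicates per genotype but gave 1 deposited value per gene and genotype, while Hi-C and the ChIP-seq of H3K27me3 and of H3K4me3 had 2 libraries for each genotype and the anti-H3 ChIP-seq had 1. The 4 × Col-0 plants come from 1 tetraploid line, so line and ploidy cannot be told apart.

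Class I KNOX proteins keep cells of the shoot apical meristem undifferentiated, and their genes are kept silent in leaves, in which Polycomb proteins take part. WUS is made in a small group of cells below the stem cells and maintains them, and the stem cells in turn limit WUS through the CLAVATA signal. H3K27me3 is the histone mark that Polycomb complexes write over silent genes, and H3K4me3 marks the starts of genes in use. The aerial part of a seedling holds few meristem cells beside its leaves, and in such bulk samples fewer cells of a type and less RNA or mark per cell cannot be told apart.

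STM lies on chromosome 1 (TAIR10, 23058582 to 23061722, minus strand), as do KNAT2 (26576486 to 26582431, plus strand) and KNAT6 (8297291 to 8302651, minus strand). KNAT1 lies on chromosome 4 (5147700 to 5150966, minus strand) and WUS on chromosome 2 (7808871 to 7810795, minus strand). These positions are those of the deposited gene table. The RefSeq model of STM starts 341 bases further upstream and that of KNAT1 193 bases and that of WUS 16 bases, so for these genes the window called promoter below begins inside RefSeq exon 1. None of the 5 bodies overlaps another gene of the table, but the promoter window of KNAT1 holds AT4G08151 and that of WUS holds AT2G17960.

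The 250 bases upstream of the RefSeq start (TAIR10.1, the same chromosome lengths as TAIR10) are shown for the 3 genes in which a searched motif was present. They also hold bases that H3K27me3 covered in some libraries and not in others at KNAT1, and the stretch before the H3K4me3 peaks of KNAT6 and WUS. Capitals mark GAGAGA or its reverse complement TCTCTC, a GA repeat, and AAACCCTA or its reverse complement TAGGGTTT, the telobox, both of which are bound by plant factors that recruit Polycomb complexes. The stretches are chr4:5151160-5151409 for KNAT1, chr1:8302652-8302901 for KNAT6 and chr2:7810812-7811061 for WUS, each on the minus strand and written 5′ to 3′ toward the gene.
KNAT1: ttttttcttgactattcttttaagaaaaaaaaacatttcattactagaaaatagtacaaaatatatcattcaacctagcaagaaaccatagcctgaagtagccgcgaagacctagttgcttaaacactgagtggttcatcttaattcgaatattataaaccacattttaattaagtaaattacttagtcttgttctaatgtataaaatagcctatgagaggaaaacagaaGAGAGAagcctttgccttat
KNAT6: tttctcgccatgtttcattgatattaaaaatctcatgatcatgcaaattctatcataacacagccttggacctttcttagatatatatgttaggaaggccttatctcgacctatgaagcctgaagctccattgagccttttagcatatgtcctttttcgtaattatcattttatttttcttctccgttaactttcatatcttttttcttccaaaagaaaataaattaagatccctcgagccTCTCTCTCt
WUS: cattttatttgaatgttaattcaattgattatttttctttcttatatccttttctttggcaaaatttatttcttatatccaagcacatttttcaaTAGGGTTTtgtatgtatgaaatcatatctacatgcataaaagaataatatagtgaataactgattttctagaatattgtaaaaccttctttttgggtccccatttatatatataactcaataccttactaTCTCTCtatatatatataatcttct

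Both strands were searched. A GAGAGA match was present upstream of 3 of the 5 genes, KNAT1, KNAT6 and WUS, and in 20.6% of 27443 promoters of the same length. An AAACCCTA match was present upstream of 1 of the 5, WUS, and in 4.49% of the promoters. The matches are a description of the letters and not of binding. H3K27me3 peaks covered all 250 bases upstream of STM, KNAT2, KNAT6 and WUS in 4 of 4 libraries. Upstream of KNAT1 they covered 0 and 250 bases in the 4 × Col-0 libraries (replicates 1 and 2), against 0 and 250 bases in the Col-0 libraries, so the mark reached past the RefSeq start of KNAT1 in 1 library of each genotype. H3K4me3 peaks covered 0 of these bases at each of the 5 genes.

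Transcripts of the 4 KNOX genes were low in both genotypes, in the order KNAT6, then KNAT1 and STM, then KNAT2, and WUS was listed at 0. Values are FPKM, reads scaled to gene length and library size, so they can be set side by side between genes. They have no replicates, so no gap between neighbours in this order has an error or a test.

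KNAT6, expressed at the boundaries between meristem and organs, had 5.24 FPKM in 4 × Col-0 and 4.15 FPKM in Col-0, a log2 ratio of 0.28 on the scale of FPKM + 1. KNAT1, which acts in the meristem and in the growth of internodes and pedicels, had 3.09 FPKM in 4 × Col-0 and 2.56 FPKM in Col-0, a log2 ratio of 0.20. STM, without which no shoot meristem is kept, had 1.87 FPKM in 4 × Col-0 and 2.48 FPKM in Col-0, a log2 ratio of -0.28. The STM value was thus the lower one in 4 × Col-0, and its rank against KNAT1 was the same in both genotypes, although in Col-0 the 2 genes stood 2.56 against 2.48 FPKM.

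KNAT2, a close relative of KNAT6, had 1.08 FPKM in 4 × Col-0 and 0.865 FPKM in Col-0, a log2 ratio of 0.15. WUS was listed at 0 in both genotypes. The scale of FPKM + 1 understates the change of genes this low, and with a pseudocount of 0.1 the log2 ratios were -0.39 for STM, 0.26 for KNAT1, 0.28 for KNAT2 and 0.33 for KNAT6. The median log2 ratio of nuclear genes with at least 1 FPKM was 0.08, and after scaling both genotypes to the same upper quartile the 4 KNOX values were -0.32 for STM, 0.15 for KNAT1, 0.12 for KNAT2 and 0.22 for KNAT6.

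None of the 5 genes reached a 2-fold difference in either direction, a limit that 0.604% of nuclear genes passed as higher in 4 × Col-0 and 0.4% as lower. In the plot of FPKM by genotype the gap between genotypes at STM and at KNAT1 is wider than the gap between these genes in Col-0.

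**Figure D1:**
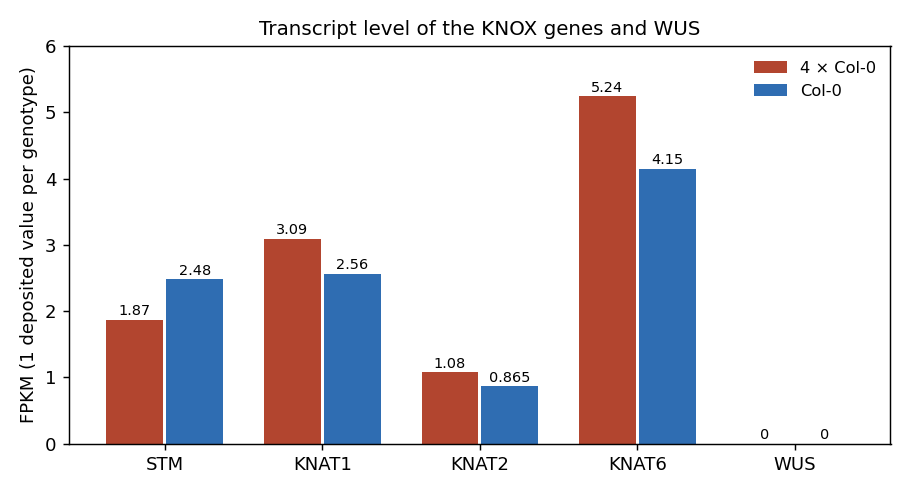
FPKM (vertical axis, linear, from 0) of the 5 genes, with 4 × Col-0 in red left of Col-0 in blue; each bar is 1 deposited value with no replicate error. KNAT6 is the highest in both genotypes, at 5.24 FPKM in 4 × Col-0 and 4.15 FPKM in Col-0, and WUS is listed at 0.

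All 5 genes lay under long H3K27me3 peaks in every library. The mark covered at least 50% of the body of 5 of 5 genes in 4 of 4 libraries, a condition met by 5185 nuclear genes (15.6%). At 80% of the body 4 of 5 genes still met it, KNAT6 being the exception, and so did 11.7% of nuclear genes. The fold enrichment is that of the deposited peaks over their control and is averaged here over the window, with 0 outside peaks.

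STM had the highest mean enrichment over its body, 3.59 and 3.91 in the 4 × Col-0 libraries, against 3.57 and 4.16 in the Col-0 libraries. The body of STM was covered over 100% of its length in each library. Among the 5185 covered genes its enrichment stood above 93.8% and 94.8% of them in the 4 × Col-0 libraries, against 91.8% and 92.5% in the Col-0 libraries.

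KNAT1 had 3.44 and 3.45 in the 4 × Col-0 libraries, against 3.28 and 3.59 in the Col-0 libraries, again with 100% of the body covered. WUS had 3.15 and 3.54 in the 4 × Col-0 libraries, against 2.98 and 3.51 in the Col-0 libraries, also with 100% covered. For both genes the values of the genotypes overlapped, and replicate 2 was above replicate 1 within each genotype.

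KNAT2 had 2.91 and 3.16 in the 4 × Col-0 libraries, against 2.96 and 3.41 in the Col-0 libraries. Its body was covered over 100% in 3 libraries and over 98.8% in Col-0 replicate 2, in which the peak ended inside the last exon.

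KNAT6 carried the least H3K27me3 of the 5 genes. Its mean enrichment was 1.81 and 1.92 in the 4 × Col-0 libraries, against 1.81 and 2.24 in the Col-0 libraries, with 70.5% and 70.8% of the body covered in 4 × Col-0, against 70.0% and 65.6% in Col-0. Among the covered genes it stood above 13.7% and 16.2% of them in 4 × Col-0, against 13.5% and 23.9% in Col-0. The main KNAT6 peak by itself had a fold enrichment of 2.57 and 2.72 in 4 × Col-0, against 2.63 and 3.51 in Col-0. In Col-0 replicate 2 it thus stood above the KNAT2 peak, at 3.45, while in the other libraries it was the lowest of the 5 genes.

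None of the 5 genes passed the limma test of body enrichment between the genotypes, which called 42 of 7775 genes tested (0.54%, adjusted p under 0.05). The log2 differences, 4 × Col-0 minus Col-0, were -0.03 for STM (95% interval -0.31 to 0.24), 0.01 for KNAT1 (-0.21 to 0.22), -0.05 for KNAT2 (-0.31 to 0.21), -0.07 for KNAT6 (-0.35 to 0.21) and 0.03 for WUS (-0.25 to 0.32). Their limma p-values with Benjamini-Hochberg adjustment over all tested genes lay between 0.881 and 0.993. The sign of each of the 5 differences turned round when 1 of the libraries was left out.

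**Figure D2:**
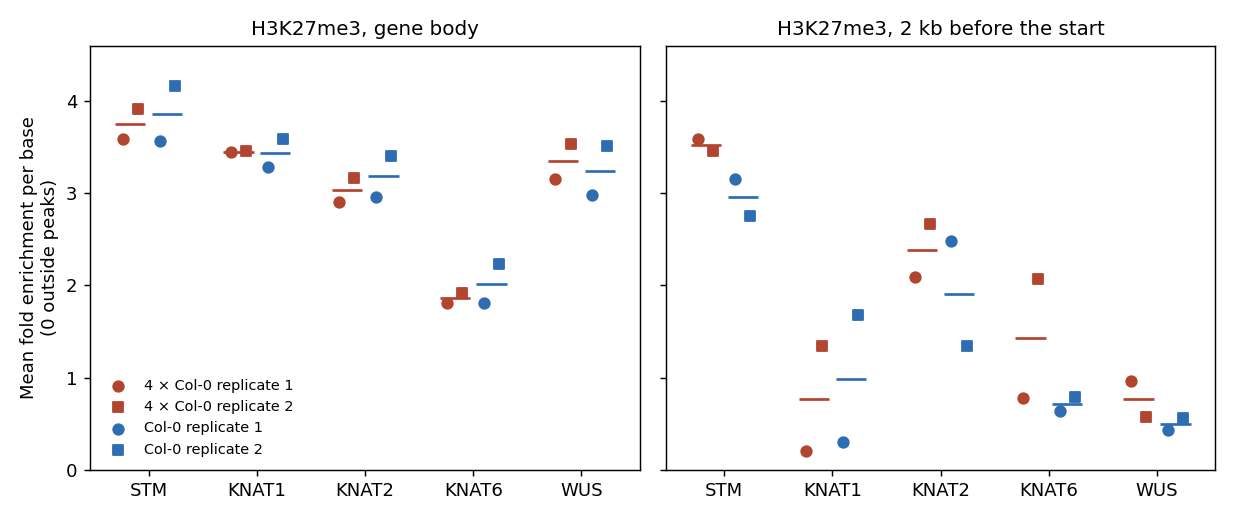
Mean H3K27me3 fold enrichment per base (vertical axis, linear, 0 outside peaks) over the gene body and over the 2 kb before the start, with 4 × Col-0 libraries in red left of Col-0 libraries in blue; circles are replicate 1, squares replicate 2 and short lines the means of 2 libraries. Over the bodies the genotypes overlap at all 5 genes and KNAT6 lies lowest, with values between 1.81 and 2.24, while over the promoters the spread between replicates is wide.

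The extent of the mark along the genes set KNAT6 apart from its relative KNAT2. KNAT2 and KNAT6 each have 2 transcripts in RefSeq, and the exons and introns named in this report are those of the first. It has 5 exons in each gene, with a long intron 3 of 4162 bases in KNAT2 and 3676 bases in KNAT6. In KNAT2 the H3K27me3 peak ran over this intron and over exon 4 in all 4 libraries. In KNAT6 the main peak ended inside intron 3, so that exons 1 to 3 were covered over 100% and exons 4 and 5 over 0% in each of the 4 libraries.

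The main KNAT6 peak ended 3781 and 3792 bases after the gene start in the 4 × Col-0 libraries, against 3527 and 3301 bases in the Col-0 libraries. It reached further in both 4 × Col-0 libraries, as did 20.6% of the 864 genes whose peak over the start ended inside the body in 4 of 4 libraries. Both Col-0 lists held a second, short peak in intron 3, of 226 bases in replicate 1 and 217 bases in replicate 2, where neither 4 × Col-0 list had one. These short peaks were weak, with fold enrichments of 1.78 and 1.86 and -log10 q of 1.44 and 1.21. Over the genome the Col-0 lists held 6780 and 7127 H3K27me3 peaks, against 6274 and 6366 in 4 × Col-0. How many other genes had a peak in the Col-0 lists alone was not counted.

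Upstream reach was measured from the start in the deposited gene table. The KNAT6 peak began 610 and 1527 bases before the start in the 4 × Col-0 libraries, against 486 and 448 bases in the Col-0 libraries. The WUS peak began 362 and 321 bases before the start in 4 × Col-0, against 292 and 318 bases in Col-0. At both genes each 4 × Col-0 peak began further upstream than each Col-0 peak, at WUS by as little as 3 bases. These are 2 of the 5 genes, and the same was so for 33.2% of the 4062 genes with a peak over the start in 4 of 4 libraries. The STM peak began 2491 and 1767 bases before the start in 4 × Col-0, against 1769 and 1324 bases in Col-0, so here the genotypes overlapped. The KNAT2 peak began 1440 and 1687 bases before the start in 4 × Col-0, against 1673 and 776 bases in Col-0, and the KNAT1 peak 119 and 775 bases in 4 × Col-0, against 185 and 934 bases in Col-0. Over all genes the lists differed in how long their peaks were, with median lengths of 1666 and 1612 bases in 4 × Col-0 and of 1475 and 1362 bases in Col-0, and the part of this in the upstream reach was not tested.

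**Figure D3:**
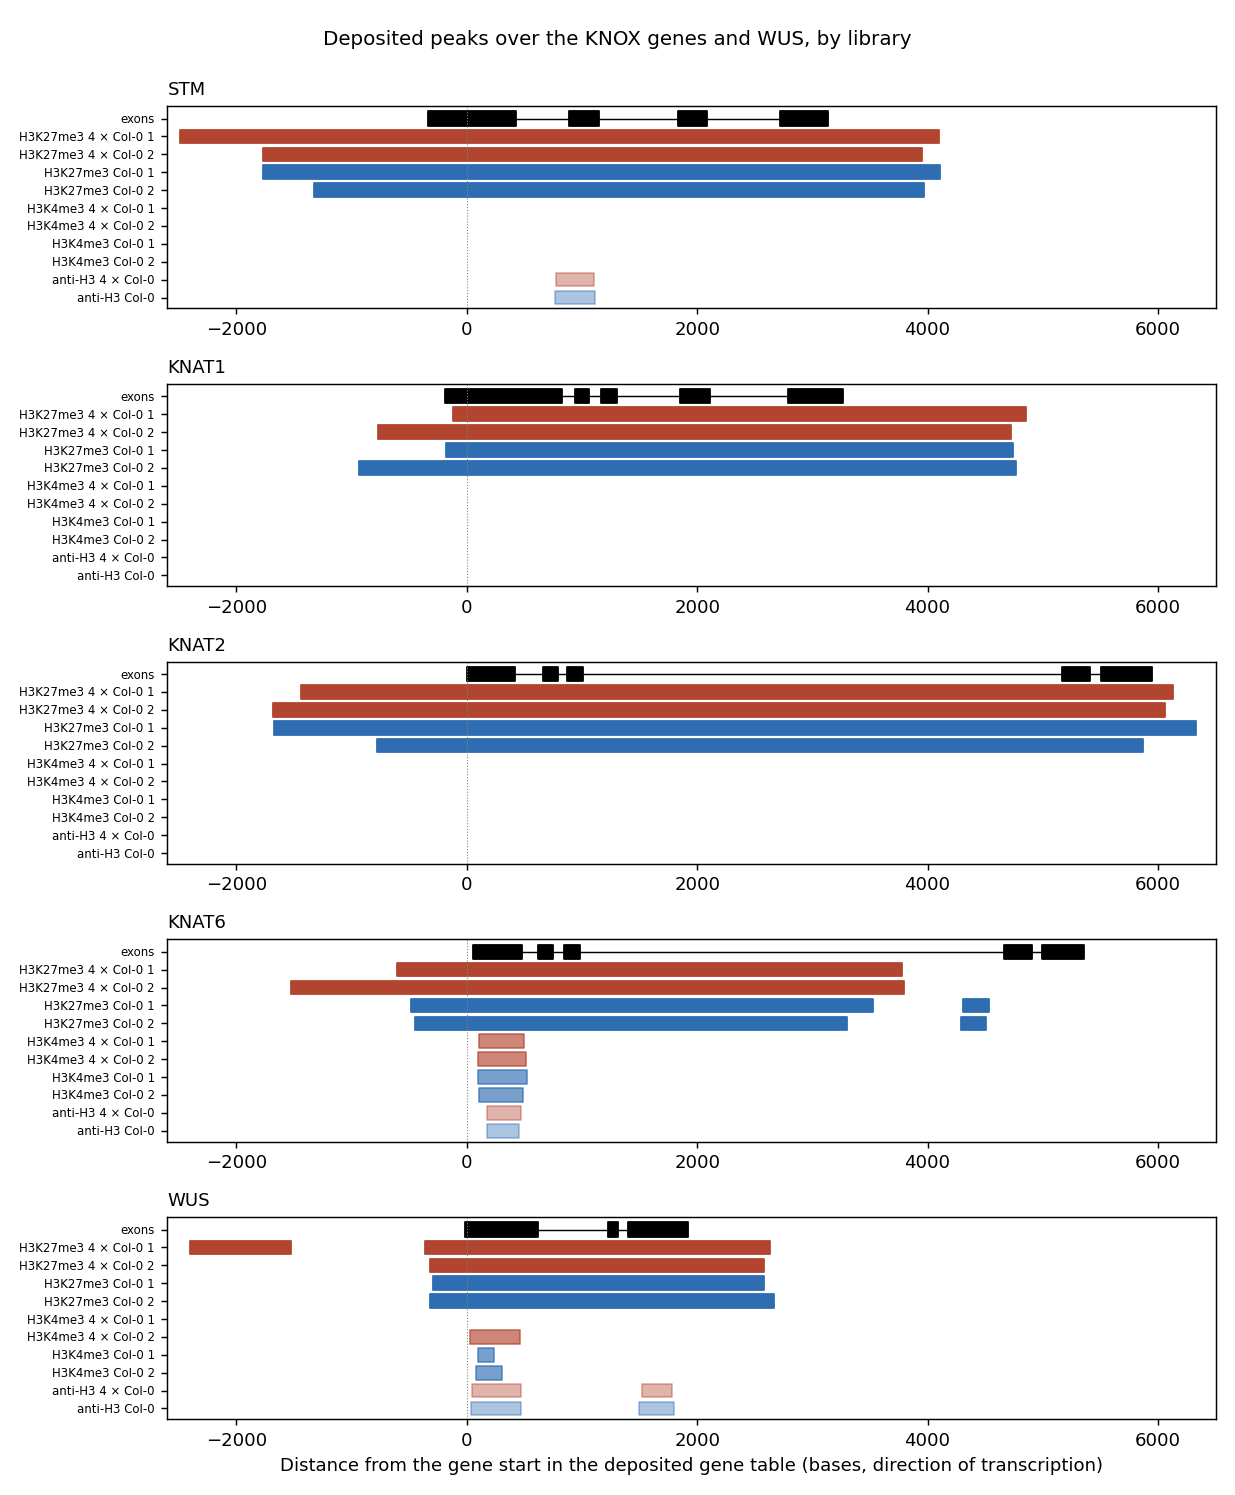
Peaks of each library as bars (red for 4 × Col-0 above blue for Col-0, paler for H3K4me3 and palest for anti-H3) against the distance from the gene start in bases, with RefSeq exons in black. H3K27me3 spans the drawn exons of STM and WUS in 4 libraries, leaves the first bases of KNAT1 exon 1 free in replicate 1 of each genotype, leaves exons 4 and 5 of KNAT6 free, and H3K4me3 appears in exon 1 of KNAT6 in 4 libraries and of WUS in 3.

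Over the 2 kb before the start the libraries differed more. H3K27me3 enrichment of the STM promoter was 3.59 and 3.46 in the 4 × Col-0 libraries, against 3.15 and 2.76 in the Col-0 libraries. That of the WUS promoter was 0.966 and 0.568 in 4 × Col-0, against 0.435 and 0.559 in Col-0. STM and WUS were higher in both 4 × Col-0 libraries than in both Col-0 libraries, which makes 2 of 5 genes, and 21.8% of the 8780 promoters tested did the same.

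The WUS value of 4 × Col-0 replicate 1 included a separate peak of 881 bases that began 2406 bases before the start, with a fold enrichment of 1.67 and a -log10 q of 1.02. With promoters of 1 kb the STM log2 difference was -0.03, since all 4 peaks then covered the window.

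KNAT6 promoter coverage was 30.5% and 76.3% in the 4 × Col-0 libraries, against 24.3% and 22.4% in the Col-0 libraries, and its enrichment was 0.783 and 2.07 in 4 × Col-0, against 0.639 and 0.786 in Col-0. The higher value rested on 4 × Col-0 replicate 2. KNAT2 promoter enrichment was 2.09 and 2.67 in 4 × Col-0, against 2.48 and 1.34 in Col-0, and KNAT1 promoter enrichment was 0.205 and 1.34 in 4 × Col-0, against 0.304 and 1.67 in Col-0. At KNAT1 the replicates of 1 genotype differed by more than the genotypes did.

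The limma differences over promoters were 0.20 for STM (95% interval -0.05 to 0.44), 0.23 for WUS (-0.16 to 0.62), 0.45 for KNAT6 (-0.34 to 1.24), 0.24 for KNAT2 (-0.39 to 0.87) and -0.15 for KNAT1 (-1.52 to 1.22) on the log2 scale. Their limma p-values with Benjamini-Hochberg adjustment lay between 0.582 and 0.951. Of the 8780 promoters limma called 0 (0%), and 896 had an unadjusted p under 0.05.

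H3K4me3 split the 5 genes. STM, KNAT1 and KNAT2 had no H3K4me3 peak on the body or in the promoter in any of the 4 lists. KNAT6 had 1 peak over exon 1, reaching into intron 1, in 4 of 4 libraries and WUS 1 within exon 1 in 3 of 4. A body peak in all 4 lists was thus present at 1 of 5 genes, against 44.3% of nuclear genes.

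The KNAT6 peak had a fold enrichment of 2.93 and 3.36 in the 4 × Col-0 libraries, against 2.90 and 2.16 in the Col-0 libraries. Its ends lay between 94 and 525 bases after the start, and it covered 7.31% and 7.74% of the body in 4 × Col-0, against 8.06% and 7.14% in Col-0. The enrichment was higher in both 4 × Col-0 libraries, with the smallest gap, 2.93 against 2.90, far below the gap between the Col-0 libraries, and 7.83% of the 14742 genes with a body peak in 4 of 4 lists did the same. Among the H3K4me3 peaks of its library it stood above 36.6% and 42.9% of them in 4 × Col-0, against 23.4% and 6.33% in Col-0.

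The WUS peak was weaker. In 4 × Col-0 it was absent from replicate 1 and had a fold enrichment of 2.04 in replicate 2, against 1.80 and 1.86 in the Col-0 libraries. It stood above 6.13% of the peaks of its library in 4 × Col-0 replicate 2, against 1.92% and 2.53% in the Col-0 libraries, so it was among the weakest in each list that held it. Its -log10 q was 6.94 in 4 × Col-0 replicate 2, against 4.26 and 3.82 in the Col-0 libraries.

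Limma gave log2 differences of 0.05 for KNAT6 (95% interval -0.24 to 0.35, adjusted p = 0.908) and 0.04 for WUS (-0.53 to 0.61, adjusted p = 0.968) in H3K4me3 over the body. It called 0 of 16519 genes (0%), with 1630 at an unadjusted p under 0.05. The H3K4me3 lists of a genotype may not be independent libraries, in which case these intervals and p-values do not measure the spread between replicates.

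The anti-H3 lists, whose reads are named as the control for the mark peaks, had peaks at the same places. In exon 1 of KNAT6 the anti-H3 enrichment was 3.65 in 4 × Col-0, against 3.27 in Col-0, and in exon 1 of WUS it was 6.67 in 4 × Col-0, against 5.66 in Col-0. WUS also had an anti-H3 peak in exon 3, at 3.39 in 4 × Col-0, against 3.73 in Col-0. STM had an anti-H3 peak over exon 2, at 5.21 in 4 × Col-0, against 4.99 in Col-0, without an H3K4me3 peak. The bodies of KNAT1 and KNAT2 had no anti-H3 peak. The part of this histone signal in the H3K4me3 peaks of KNAT6 and WUS was not tested.

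At KNAT6 the H3K4me3 peak lay wholly within the H3K27me3 peak, with 392 and 415 shared bases in the 4 × Col-0 lists, against 432 and 383 bases in the Col-0 lists. At WUS the H3K4me3 peak also lay wholly within the H3K27me3 peak in the lists that held it. There the shared bases were 437 in 4 × Col-0 replicate 2, against 146 and 222 in the Col-0 lists. KNAT6 was also the KNOX gene with the highest FPKM, whereas WUS was listed at 0. Of the 5185 genes under H3K27me3, 666 (12.8%) also had an H3K4me3 peak in all 4 lists, with a median of 1.52 FPKM in 4 × Col-0 and 1.66 FPKM in Col-0. The 4076 without any H3K4me3 peak had a median of 0 FPKM in 4 × Col-0 and 0.00789 FPKM in Col-0. STM, KNAT1 and KNAT2 belong to the second set, and each lay above its median in both genotypes. Within all 5185 covered genes, 1520 (29.3%) reached 1 FPKM in at least 1 genotype, as did the 4 KNOX genes, and 1987 (38.3%) were listed at 0 in both, as was WUS. KNAT6 stood above 87.2% of the covered genes in 4 × Col-0, against 84.8% in Col-0.

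In the Hi-C matrices each gene was followed through the 50 kb bin that holds its start. The bodies of STM, KNAT2 and WUS lay wholly in that bin. The bin of KNAT1 begins at position 5150001 and that of KNAT6 at 8300001, each inside the gene. At both genes the part of the body further from the start thus fell in the neighbouring bin, and at KNAT1 this was the larger part. The share of the signal of the bin that fell on other chromosomes was 32.1% and 33.1% for STM in the 4 × Col-0 libraries, against 30.0% and 29.1% in the Col-0 libraries. For KNAT1 it was 35.8% and 35.9% in 4 × Col-0, against 31.1% and 29.7% in Col-0, the largest gap of the 5 bins. For KNAT2 it was 36.9% and 36.9% in 4 × Col-0, against 34.9% and 34.4% in Col-0.

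The bin of KNAT6 had 33.5% and 33.3% in 4 × Col-0, against 32.6% and 29.9% in Col-0. The bin of WUS had 39.2% and 37.6% in 4 × Col-0, against 36.0% and 32.9% in Col-0. All 5 bins were higher in both 4 × Col-0 libraries than in both Col-0 libraries, as were 90.8% of the 2376 bins of the genome, so the 5 genes share a gap that most of the genome has. None of them was lower in both, as were 0% of bins. The exact permutation test, two-sided, gave p = 0.333 for each, the smallest that 2 against 2 libraries can give. The KNAT1 bin stood low on its chromosome in both genotypes, above 3.76% and 0.806% of the bins of chromosome 4 in 4 × Col-0, against 1.61% and 1.08% in Col-0.

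Contact of the bins with bins 50 to 500 kb away, as observed over expected at the same distance, was 0.984 and 0.982 for KNAT1 in 4 × Col-0, against 0.916 and 0.949 in Col-0. KNAT1 was the 1 gene of 5 that was higher in both 4 × Col-0 libraries (exact permutation test, two-sided, p = 0.333), which 17.5% of bins were, while 16.8% of bins and 0 of the 5 genes were lower in both. For contacts of 50 to 200 kb, and for those of 50 kb to 1 Mb, the KNAT1 values of the genotypes overlapped. For 50 to 200 kb STM was the 1 gene of 5 without overlap and was lower in 4 × Col-0, at 0.976 and 0.957, against 1.13 and 0.984 in Col-0. The share of all bins without overlap was not computed at this distance, so this count has nothing to be set against. At 50 to 500 kb the 4 bins other than that of KNAT1 lay between 0.837 and 0.961 in the 4 × Col-0 libraries. In the Col-0 libraries these 4 bins lay between 0.802 and 1.00.

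KNAT6, STM and KNAT2 are on the same chromosome, and their contact in windows of 3 by 3 bins was compared. Contact of KNAT6 with STM was 1.32 and 1.17 times the expected in 4 × Col-0, against 1.47 and 1.31 times in Col-0. Contact of KNAT6 with KNAT2 was 0.599 and 1.17 times in 4 × Col-0, against 1.24 and 0.773 times in Col-0, and that of STM with KNAT2 was 1.17 and 1.05 times in 4 × Col-0, against 0.863 and 1.06 times in Col-0. The genotypes overlapped for each pair. The depth limits these values, since 34.5% and 5.16% of bin pairs had no contact in the 4 × Col-0 libraries, against 58.7% and 10.997% in the Col-0 libraries.

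**Figure D4:**
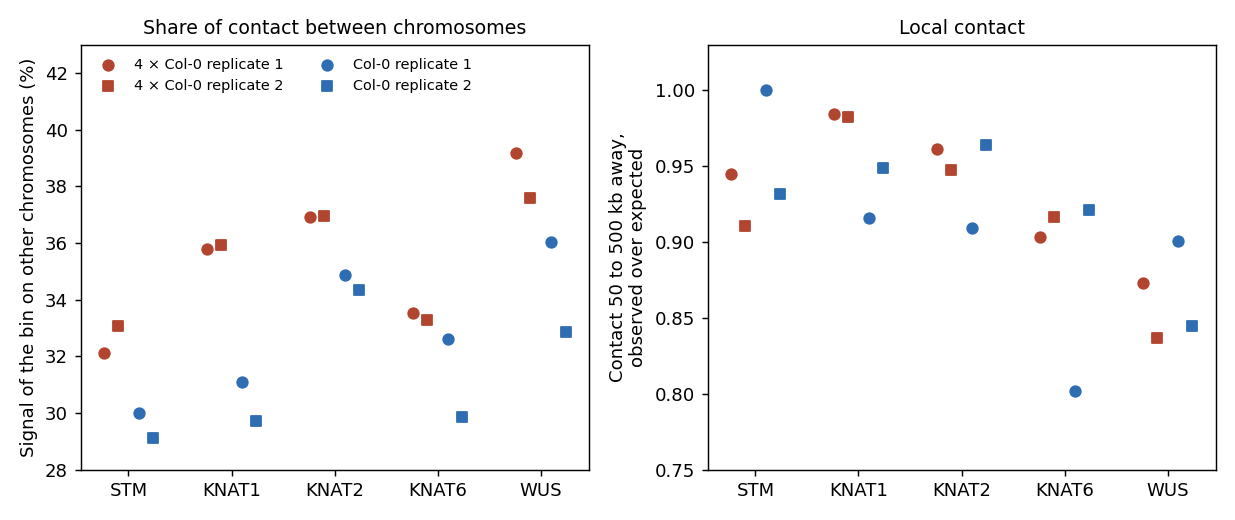
Share of the Hi-C signal on other chromosomes in percent and local contact as observed over expected (vertical axes, linear, not from 0) for the 50 kb bins of the 5 genes, with 4 × Col-0 libraries in red left of Col-0 libraries in blue; circles are replicate 1 and squares replicate 2. The share on other chromosomes is higher in both 4 × Col-0 libraries at all 5 genes, whereas local contact does not overlap between the genotypes at KNAT1 alone.

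The genes that work with the KNOX proteins and WUS were set beside them from lists of known pathway members. Counts of higher and lower FPKM values in 4 × Col-0 describe 1 value per genotype and have no test. Among all 33278 nuclear genes 14151 were higher in 4 × Col-0 and 9511 lower before scaling, so higher counts were the more common ones. The counts over all genes were not made after upper-quartile scaling, so the scaled counts of the lists have nothing to be set against. None of the 64 listed genes passed the limma test for either mark in either window. At an unadjusted p under 0.05 limma had 1 of 30 tested list genes for H3K27me3 over the body and 5 of 25 over the promoter, against 9.34% and 10.2% of all genes tested. For H3K4me3 it had 8 of 39 over the body and 1 of 15 over the promoter, against 9.87% and 9.77% of all genes tested.

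Of the 13 BELL genes, whose proteins pair with KNOX proteins, 10 were higher in 4 × Col-0 and 3 lower, with a median log2 ratio of 0.30, and the counts were 10 and 3 after upper-quartile scaling too. BLH4, which with its relative BLH2 restrains KNOX expression in leaves, had 24.6 FPKM in 4 × Col-0 and 11.6 FPKM in Col-0. Its log2 ratio was 1.02, past the 2-fold limit, and 0.95 after that scaling, short of it. The value is 1 per genotype and has no error. H3K27me3 covered 3 of the 13 in 4 of 4 libraries. One of those 3 is PNY, a meristem partner of STM and KNAT1 named here after its values were seen. It had 8.70 FPKM in 4 × Col-0 and 10.4 FPKM in Col-0 and carried H3K4me3 as well in 4 of 4 libraries.

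Of the 5 genes made up by class II KNOX and KNATM, 2 were under H3K27me3 in 4 of 4 libraries, against 4 of 4 in class I. Class II genes act in differentiating organs. KNAT5 had 21.2 FPKM in 4 × Col-0 and 23.4 FPKM in Col-0, above each class I gene. In this list 3 genes were higher and 2 lower in 4 × Col-0, which became 2 and 3 after upper-quartile scaling.

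Of the 14 other WOX genes, relatives of WUS, 10 lay under H3K27me3 in 4 of 4 libraries and 3 carried H3K4me3 in 4 of 4. WOX13, found in many tissues, was the highest, with 7.67 FPKM in 4 × Col-0 and 7.28 FPKM in Col-0. In this list 6 genes were higher, 5 lower and 3 listed at 0 in both genotypes.

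The CLAVATA pathway and the HAM cofactors of WUS differed from WUS in their marks. Of 13 genes 1 was under H3K27me3 in 4 of 4 libraries and 11 carried H3K4me3 in 4 of 4. The covered gene is CLV3, the peptide signal of the stem cells, named here after its values were seen. CLV3 was listed at 0 in both genotypes like WUS. BAM1, a receptor related to CLV1, had 20.6 FPKM in 4 × Col-0 and 22.8 FPKM in Col-0. The list had 6 genes higher and 6 lower in 4 × Col-0, and 4 and 8 after upper-quartile scaling.

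Of the 8 genes that repress KNOX genes or mark organ boundaries, 6 were under H3K27me3 in 4 of 4 libraries, 7 carried H3K4me3 in 4 of 4 and 5 carried both, as KNAT6 did. AS1, the MYB protein that keeps KNAT1, KNAT2 and KNAT6 silent in leaves, was the highest, with 16.1 FPKM in 4 × Col-0 and 15.8 FPKM in Col-0. It had no H3K27me3 over 50% of the body in any library. The list had 5 genes higher and 3 lower in 4 × Col-0, which became 3 and 5 after upper-quartile scaling.

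Of the 11 cytokinin and gibberellin genes that act under KNOX proteins or WUS, 5 were higher and 6 lower in 4 × Col-0 under both scalings. ARR7, a response regulator that WUS is known to repress, had 5.44 FPKM in 4 × Col-0 and 2.14 FPKM in Col-0. Its log2 ratio was 1.04, and 0.98 after scaling, again short of 2-fold. LOG7, a cytokinin-activating enzyme, was the highest of the list, with 9.82 FPKM in 4 × Col-0 and 10.3 FPKM in Col-0.

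**Figure D5:**
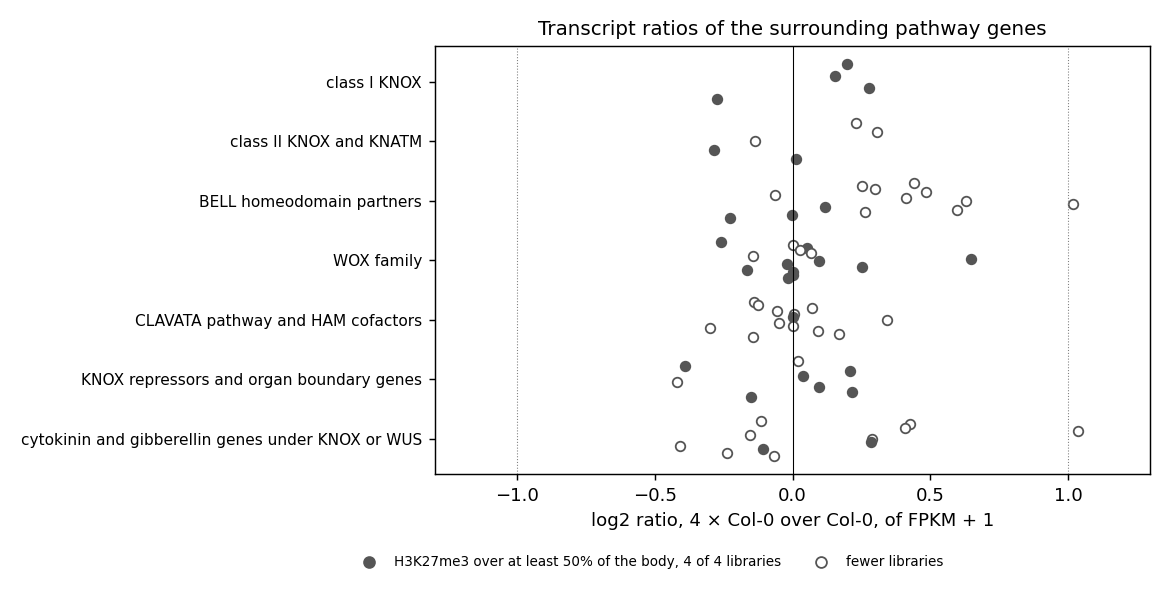
Log2 ratio of FPKM + 1, 4 × Col-0 over Col-0 (horizontal axis), for each gene of the pathway lists, 1 point per gene, filled where H3K27me3 covered at least 50% of the body in 4 of 4 libraries; dotted lines mark a 2-fold difference. BLH4 at 1.02 and ARR7 at 1.04 are the points past the line, and the 4 class I KNOX genes lie between -0.28 and 0.28.

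Markers of other tissues were checked beside these values. Leaf genes summed to 29426 FPKM in 4 × Col-0 and 31685 FPKM in Col-0 over 5 genes, of which LHCB1.3, near-identical to its neighbours, was listed at 0. The 4 floral organ markers summed to 1.1004 FPKM in 4 × Col-0 and 1.04 FPKM in Col-0. The 7 root markers summed to 94.9 FPKM in 4 × Col-0 and 116 FPKM in Col-0, with CASP1 of the root endodermis at 61.8 FPKM in 4 × Col-0 and 76.6 FPKM in Col-0. No root marker was at 0 in both genotypes, and all 7 were under H3K27me3 in 4 of 4 libraries. The stated harvest of aerial parts leaves roots out, and the part of these transcripts' source in the KNOX values was not tested.

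The genes most like each of the 5 were sought over 18 values, the 2 FPKM values and the 16 enrichments of both marks over body and promoter, each divided by its SD. The nearest to STM was AT1G54890, at a distance of 0.606, followed by AT1G33750 at 0.792, where the median distance to all genes was 9.89. For KNAT1 they were FRO5 at 0.916 and AT3G43890 at 1.09, for KNAT2 AT5G38550 at 0.630 and AT5G51470 at 0.656, for KNAT6 AT5G54240 at 1.43 and FAF3 at 1.55, and for WUS the homeobox gene HB51 at 0.851 and AT2G28220 at 1.02. Among the 5 genes themselves STM and KNAT2 were the closest, at 1.87, and STM and WUS the furthest apart, at 5.16. KNAT6 had the most distant nearest neighbour of the 5.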

How the data were processed

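Aerial parts of seedlings were profiled by RNA-seq, ChIP-seq and Hi-C. Per the study's methods the authors mapped RNA-seq reads with STAR and featureCounts on TAIR10, and the deposited table gives FPKM as 1 value per gene and genotype. How the 3 replicates were combined is not given in the sources used here. ChIP-seq reads were mapped with BWA and peaks called by Macs2 at default settings against anti-H3 reads. The deposited peaks carry a fold enrichment and a q-value as −log10. That anti-H3 was the control of the mark peaks is taken from the methods, which do not state a control for the anti-H3 peaks themselves. The deposited Hi-C matrices hold signal per pair of 50 kb bins, made by the authors with HiC-Pro and Juicer and balanced by the KR method. The submitters' processing notes also name R 3.4.1. Names of H3K4me3 peaks carry tags, the word merge among them, whose meaning is not stated, so these lists may not be independent libraries. The read depth behind the FPKM and the peaks is unknown. The methods call the replicates biological, without saying what was grown apart.

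Gene bodies and the 2 kb before each start were overlapped with the peaks in Python 3.11.15. Log2(mean enrichment + 1) was tested with limma 3.58.1 in R 4.3.3 over all nuclear genes above 0 in at least 2 of 4 libraries, with Benjamini-Hochberg adjustment and a threshold of 0.05, and the step was tested on simulated data. FPKM was compared as log2(FPKM + 1) without a test. Hi-C and coverage values were compared by the exact permutation test, two-sided. Upstream sequences, exons and symbols are those of RefSeq on TAIR10.1, in which 32820 of the 33278 nuclear genes of the table were matched by locus name. By rule the text names the 5 genes, their 2 nearest genes each, the gene of each list with the highest FPKM averaged over the genotypes, and list genes past 2-fold or called by limma. Members, lists and tests were chosen with earlier results of these data known. Input libraries were not used here. Other filters, pseudocounts, windows, scalings and left-out libraries were tried as alternatives.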

Additional observations from a re-analysis of the deposited data

How the results depend on the processing

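The 12 tested enrichment values of the 5 genes stayed short of the threshold in all 126 alternative values, with a lowest adjusted p of 0.286 (limma, Benjamini-Hochberg), but in 15 the sign turned round. STM over the body was 0.013 with libraries scaled to the median peak enrichment, STM over a promoter of 1 kb was -0.032, and WUS in H3K4me3 was -0.20 with a pseudocount of 0.1. The other 12 came from leaving out 1 library. The H3K27me3 body values then lay between -0.12 and 0.057 for STM, between -0.043 and 0.055 for KNAT1, between -0.13 and 0.026 for KNAT2, between -0.17 and 0.030 for KNAT6 and between -0.056 and 0.13 for WUS. The H3K27me3 promoter values lay between -0.67 and 0.36 for KNAT1 and between -0.046 and 0.53 for KNAT2, and the H3K4me3 body value of WUS between -0.23 and 0.32. Each lowest and highest value came without a Col-0 library, except those of WUS in H3K4me3, which came without a 4 × Col-0 library. With peaks of q of 1e-05 or less WUS in H3K4me3 could not be tested, since its peaks in the Col-0 lists did not pass that limit.

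Genes called over all tested were 42 for H3K27me3 over the body. This became 189 with peaks of q of 1e-05 or less, 23 with scaled libraries, 114 with a pseudocount of 0.1, 0 with a limma trend and between 0 and 103 when 1 library was left out, at 0 without either Col-0 library and 103 without 4 × Col-0 replicate 1. Over promoters the count of 0 became 105 with the stricter peaks and 29 with no filter on low values. With no filter H3K4me3 had 8 calls over the body and 5 over promoters; the variance was then exactly 0 for between 48.1% and 74.8% of genes over the marks and windows, and limma warned that 3 of the 4 fits are unreliable, the exception being H3K4me3 over the body. Library numbers gave no pairing, since deviations of same-numbered libraries correlated at 0.116 over the body and 0.0635 over promoters for H3K27me3 and at -0.211 and -0.235 for H3K4me3. With a replicate block the H3K27me3 body count was 0. A block with crossed numbers, chosen after seeing the data, called 0 genes for H3K4me3 in both windows.

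The number of genes with an H3K4me3 body peak in all lists lay between 1 and 2 when 1 list was left out, WUS joining without 4 × Col-0 replicate 1. Genes whose local contact did not overlap numbered 2 for contacts up to 1 Mb, KNAT2 and KNAT6, each higher in 4 × Col-0. For contacts up to 200 kb they numbered 1, there STM and lower in 4 × Col-0. With 1 library left out they numbered between 1 and 5, the 5 without Col-0 replicate 2. The shares of all bins without overlap were not computed for these settings. Of the chromosome 1 pairs, 1 did not overlap with windows of 5 by 5 bins, KNAT6 with STM, and it was lower in 4 × Col-0. With 1 library left out between 0 and 3 pairs did not overlap, the 3 again without Col-0 replicate 2. The share of all bin pairs without overlap was not computed either, so these pair counts have nothing to be set against. When a library is left out fewer values must separate, so non-overlap of bins or pairs is reached more easily. The causes were not tested.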
